A study of Mus musculus with 6 samples.

Results

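Notch receptors, their ligands and the genes at the end of the pathway were followed in MPC5, a line of conditionally immortalised podocytes from the mouse. The genes were Notch1, Notch2, Notch3, Jag1, Jag2, Dll1, Lfng, Hes1, Hey1 and Rbpj, which are 10 of the 21719 genes in the deposited count table, chosen by name. RNA was sequenced from 3 libraries labelled Setdb2KO, a knockout of the histone methyltransferase gene Setdb2, and 3 labelled Setdb2WT, its wild type, and all 6 were from cells in high glucose. Which part of Setdb2 was edited, and whether the knockout is 1 clone, is not given in the sources used here. Whether libraries under the same label are separate cultures is not stated, and p-values therefore reflect only the spread among these samples, which may be technical.

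Notch receptors sit at the cell surface and bind Jagged or Delta-like ligands on a neighbouring cell. Ligand binding exposes the receptor to a metalloprotease and then to gamma-secretase, which frees its intracellular domain. That domain enters the nucleus, joins the DNA-binding protein Rbpj and a Mastermind coactivator, and switches on genes such as those of the Hes and Hey families. Fringe enzymes such as Lfng add sugars to the receptor and change which ligands it answers to. In the kidney the pathway takes part in patterning of the nephron, and its activity in mature podocytes has been tied to glomerular damage.

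Total counts were 36461449 to 36761970 reads in the Setdb2KO-labelled libraries and 36767396 to 37129174 in the Setdb2WT-labelled ones. Setdb2 itself (Entrez 239122) had 17, 15 and 25 reads in the Setdb2KO-labelled libraries and 12, 10 and 9 in the Setdb2WT-labelled ones. The targeted gene was therefore not lower under the knockout label (log2 fold change 0.73, SE 0.38; edgeR adjusted p = 0.088, and 0.043 with total-count scaling), and all directions below are those of the labels. Of 13 podocyte markers tested 5 rose, 7 fell and 1 did not pass, beside 41.5% of all genes tested higher and 42.3% lower. The summed level of all 15 podocyte markers in the table was 1751 to 1836 CPM under Setdb2KO and 1985 to 1995 CPM under Setdb2WT. Most of that sum was Cd2ap, Actn4, Nes and Tjp1. In that order they averaged 633, 524, 276 and 171 CPM under Setdb2KO, and 415, 716, 325 and 191 CPM under Setdb2WT. CPM is the read count scaled to library size. Wt1, a defining podocyte factor, had 1 read over the Setdb2KO-labelled libraries and 3 over the Setdb2WT-labelled ones. Podxl, the coat protein of foot processes, averaged 4.96 ± 0.38 CPM under Setdb2KO and 50.5 ± 1.6 CPM under Setdb2WT (SD, n = 3 each). Synpo, an actin-associated podocyte protein, averaged 25.4 ± 1.8 CPM under Setdb2KO and 43.6 ± 0.60 CPM under Setdb2WT.

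In the Setdb2KO-labelled libraries all 3 receptors, both Jagged ligands and Lfng were lower, whereas Rbpj, Hes1 and Dll1 were higher. Hey1 was lower by a small margin. In bulk RNA, fewer cells of a type and less RNA per cell cannot be told apart. All 10 genes passed the filter on low counts and edgeR's test (adjusted p under 0.05), 3 higher and 7 lower, and the CPM values of the groups overlapped in none. The background was wide: 83.8% of 13509 genes tested passed, 41.5% higher and 42.3% lower, and 84.6% had groups that did not overlap. The count of members called is therefore close to that of genes in general and is no result about them. Changes of at least 2-fold were found in 4 members, against 32.6% of all genes tested. The median log2 fold change was -0.67 over the members and 0.0045 over all genes tested.

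**Figure D1:**
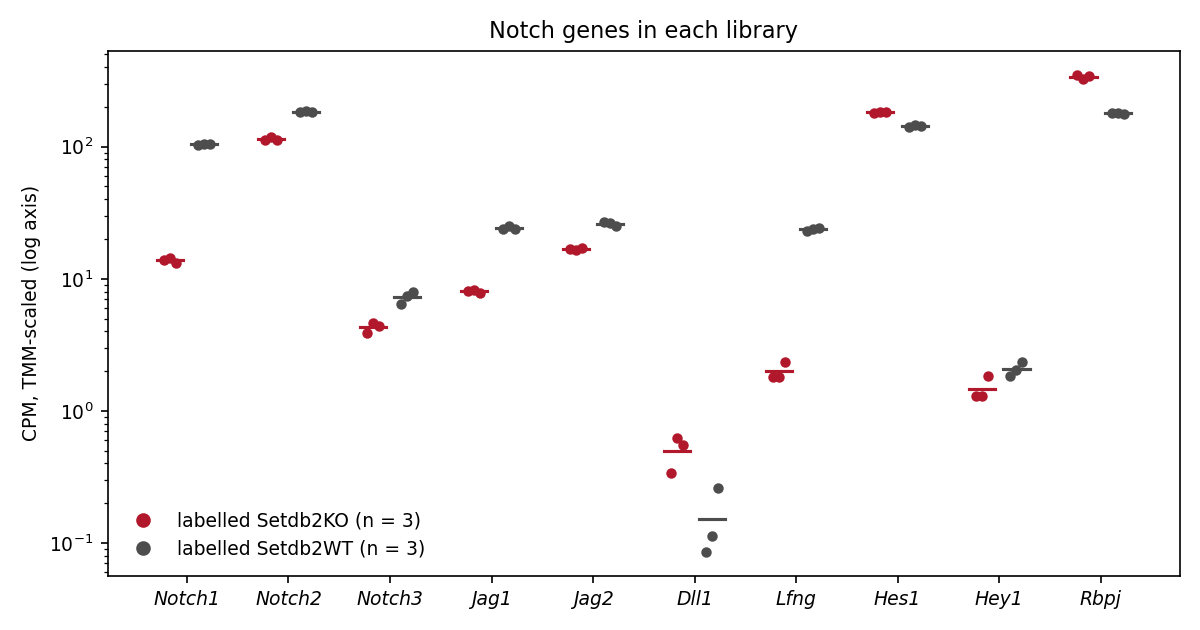
Level of each gene in each library, as TMM-scaled CPM on a log axis; points are libraries and bars the mean of 3. The Notch1 and Lfng points of the Setdb2KO-labelled libraries lie far below those of Setdb2WT, Rbpj and Hes1 lie above, and the Hey1 points come close to each other.

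Sequences before the start sites are shown for Lfng, the member that fell most, for Rbpj, which rose, and for Hey2, another Hey gene. They are the 250 bases before the start in RefSeq on GRCm38.p6, read 5′ to 3′ on the gene's strand, and capitals mark TGGGAA, the core bound by Rbpj, or GTGGGAA, on either strand. The windows are chr5:140607091-140607340 on the plus strand for Lfng, chr5:53590096-53590345 on the plus strand for Rbpj, and chr10:30842784-30843033 on the minus strand for Hey2. The submitters' notes name GRCm39 for the counts, so these positions are not those of the table's build.
Lfng: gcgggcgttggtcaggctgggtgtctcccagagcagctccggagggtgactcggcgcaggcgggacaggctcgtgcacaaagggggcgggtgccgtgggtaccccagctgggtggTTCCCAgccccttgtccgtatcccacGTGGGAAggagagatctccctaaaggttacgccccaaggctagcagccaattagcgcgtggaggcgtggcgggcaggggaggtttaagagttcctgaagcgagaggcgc
Rbpj: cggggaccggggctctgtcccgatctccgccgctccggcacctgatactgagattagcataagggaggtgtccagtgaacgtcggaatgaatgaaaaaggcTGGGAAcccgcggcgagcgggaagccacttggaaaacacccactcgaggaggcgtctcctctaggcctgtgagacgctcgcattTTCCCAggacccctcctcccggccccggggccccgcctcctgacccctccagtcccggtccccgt
Hey2: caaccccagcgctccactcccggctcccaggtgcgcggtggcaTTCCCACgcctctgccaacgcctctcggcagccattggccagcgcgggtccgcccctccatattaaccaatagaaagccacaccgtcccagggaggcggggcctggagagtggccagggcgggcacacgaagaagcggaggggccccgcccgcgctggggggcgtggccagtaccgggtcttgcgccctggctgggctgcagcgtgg

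The Lfng window holds the core on the opposite strand 130 to 135 bases before the start, and on the gene's strand 103 to 108 bases before it, where it extends to GTGGGAA. The Rbpj window shown is that of start 1 of 2 in RefSeq. It holds the core on the gene's strand 144 to 149 bases before the start. On the opposite strand the core lies 60 to 65 bases before it. The window of Rbpj start 2 holds only the opposite-strand match, 200 to 205 bases before that start. In the Hey2 window GTGGGAA lies on the opposite strand, with its core 202 to 207 bases before the start. The core is present in 21.6% of all 32851 RefSeq windows of this length, at least 2 times in 2.77%, and GTGGGAA, which always contains the core, in 5.42%. Windows were found for 8 of the 10 members, 10 windows in all, and 2 of these members, Lfng and Rbpj, hold the core. Among the other Hes and Hey genes and feedback genes with a window, Hes7 also holds GTGGGAA, and Hes6, Nrarp and Bhlhe41 hold no core. All windows shown are thus ones with a match. Whether Rbpj binds at these matches was not tested. No window was found for Hes1 and Hey1.

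Among the receptors, Notch1 changed most. Notch1 (Entrez 18128, chromosome 2 in GRCm38) had 13.9, 14.4 and 13.3 CPM in the Setdb2KO-labelled libraries, against 102, 105 and 106 CPM in the Setdb2WT-labelled ones. The libraries of each group lay close together and far from the other group. Notch1 fell 7.53-fold (log2 fold change -2.91, SE 0.047; adjusted p = 1.4e-15, edgeR's quasi-likelihood test adjusted over all genes tested). Of all genes tested, 5.74% had a larger change in either direction. Notch1 exons overlap the antisense gene 0610009E02Rik in the GENCODE annotation of GRCm38, and without a known strand setting reads of the pair cannot be told apart.

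Notch2 (Entrez 18129, chromosome 3) was the most abundant receptor in both groups. It had 111, 118 and 113 CPM under Setdb2KO and 184, 185 and 185 CPM under Setdb2WT. This is a 1.62-fold fall (log2 fold change -0.69, SE 0.033; edgeR adjusted p = 8.7e-11), and 48.0% of all genes tested changed more. Notch3 (Entrez 18131, chromosome 17), the receptor of mural cells such as vascular smooth muscle, was the least abundant of the 3. Its levels were 3.88, 4.62 and 4.41 CPM under Setdb2KO and 6.49, 7.43 and 7.96 CPM under Setdb2WT. All Setdb2KO-labelled values lay below the lowest Setdb2WT-labelled value, a 1.70-fold fall (log2 fold change -0.76, SE 0.12; edgeR adjusted p = 4.5e-05). GENCODE places the antisense gene Gm17276 over Notch3 exons and Gm42820 over those of Notch2, so shared reads cannot be told apart there either.

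The receptor make-up shifted with these changes. Per kilobase of exon, Notch1 made up 11.6%, 11.4% and 11.0% of the summed Notch1 to Notch3 level in the Setdb2KO-labelled libraries and 36.95%, 37.3% and 37.5% in the Setdb2WT-labelled ones. Notch2 made up 84.5% ± 0.21 under Setdb2KO and 59.6% ± 0.57 under Setdb2WT (SD, n = 3 each). Notch3 made up 4.17% ± 0.28 under Setdb2KO and 3.09% ± 0.28 under Setdb2WT. These shares do not depend on how libraries are scaled to each other. The ratio of Notch1 to Notch2 per kilobase was 0.138, 0.135 and 0.130 under Setdb2KO and 0.613, 0.628 and 0.634 under Setdb2WT. It was 4.66-fold lower under Setdb2KO, in 3 of 3 libraries (exact permutation test, two-sided, p = 0.1, the smallest that 3 against 3 libraries allow; 0.117 adjusted over 7 ratios compared). Relative to Notch3, Notch1 stood at 3.02, 2.62 and 2.54 under Setdb2KO and 13.3, 11.9 and 11.2 under Setdb2WT (4.45-fold lower under Setdb2KO; exact permutation p = 0.1, 0.117 adjusted). The ratio of Notch2 to Notch3 was 21.9, 19.4 and 19.6 under Setdb2KO and 21.7, 19.0 and 17.7 under Setdb2WT, with overlapping groups (exact permutation p = 0.5).

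**Figure D2:**
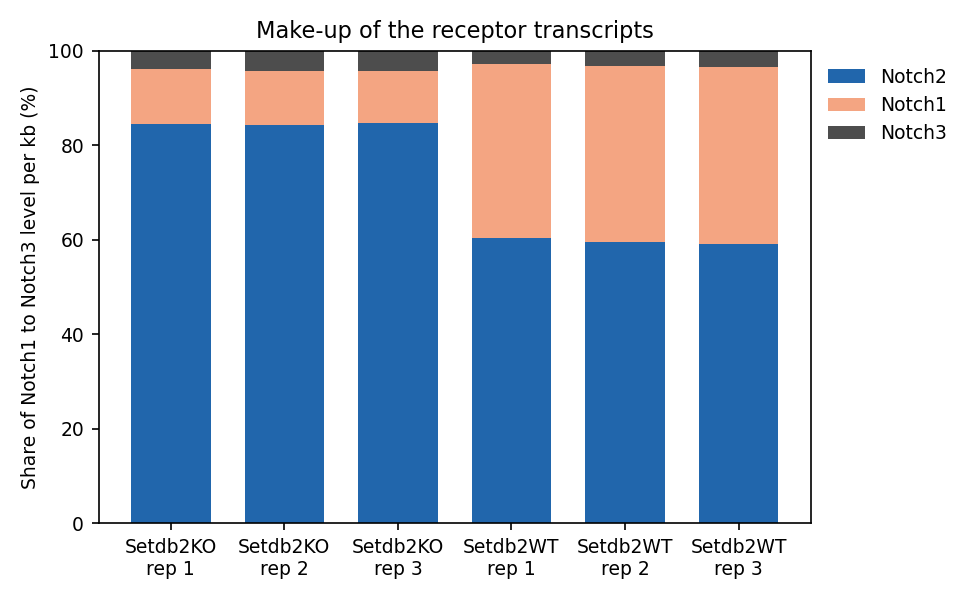
Share of Notch1, Notch2 and Notch3 in their summed level per kilobase of exon, in percent, for each library. Notch1 takes about 11.3% of the bars of the Setdb2KO-labelled libraries and 37.3% of those of the Setdb2WT-labelled ones, and Notch2 takes most of the rest.

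Both Jagged ligands fell, Jag1 the more. Jag1 (Entrez 16449, chromosome 2) had 8.04, 8.16 and 7.87 CPM in the Setdb2KO-labelled libraries and 23.9, 24.9 and 23.7 CPM in the Setdb2WT-labelled ones. This is a 3.01-fold fall (log2 fold change -1.59, SE 0.069; edgeR adjusted p = 3.2e-11). Jag2 (Entrez 16450, chromosome 12) had 16.7, 16.6 and 17.1 CPM under Setdb2KO and 27.0, 26.5 and 25.0 CPM under Setdb2WT. It fell 1.56-fold (log2 fold change -0.64, SE 0.060; edgeR adjusted p = 1.9e-07), and 50.8% of all genes tested changed more. The ligand balance moved towards Jag2: the ratio of Jag2 to Jag1 per kilobase was 2.29, 2.23 and 2.38 under Setdb2KO and 1.25, 1.17 and 1.16 under Setdb2WT (1.93-fold; exact permutation p = 0.1, 0.117 adjusted).

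Dll1 (Entrez 13388, chromosome 17), the Delta-like ligand that pairs with Notch receptors in many developing tissues, was near the detection limit. It had 13, 24 and 21 reads in the Setdb2KO-labelled libraries and 3, 4 and 9 in the Setdb2WT-labelled ones. No library under Setdb2WT reached 10 reads, so the gene passed the filter on low counts only through the Setdb2KO-labelled libraries, and its call is no support for a change among ligands. Its exons overlap those of A930024N18Rik on the other strand in GENCODE, and reads of the pair cannot be told apart. Its log2 fold change was 1.69 (SE 0.48; edgeR adjusted p = 0.005). Scaled for library size, its summed reads stood in a ratio of 3.29, and counting error alone put that ratio between 1.86 and 6.13 (exact Clopper-Pearson 95% interval). Without Setdb2WT replicate 3, the library with 9 reads, the log2 fold change was 2.28.

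Lfng (Entrez 16848, chromosome 5), the fringe enzyme that lengthens O-fucose sugars on Notch, changed most of all 10 genes. It had 1.81, 1.81 and 2.35 CPM under Setdb2KO, or 70, 70 and 90 reads. Under Setdb2WT it had 23.1, 23.8 and 24.3 CPM, or 806, 838 and 845 reads. Every Setdb2KO-labelled library lay far below every Setdb2WT-labelled one. The fall was 11.9-fold (log2 fold change -3.57, SE 0.10; edgeR adjusted p = 4.3e-13), and 3.72% of all genes tested changed more in either direction. Its level per kilobase of exon was 0.862 ± 0.13 CPM under Setdb2KO (SD, n = 3). Under Setdb2WT it was 10.3 ± 0.27 CPM per kilobase (SD, n = 3), next below Notch1 among the members.

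The other fringe genes did not share this fall. Rfng averaged 33.2 ± 1.8 CPM under Setdb2KO and 28.03 ± 0.74 CPM under Setdb2WT (SD, n = 3 each) and rose 1.18-fold (log2 fold change 0.24, SE 0.056; edgeR adjusted p = 0.0011). Mfng, named here after its values were seen, had 34, 32 and 18 reads in the Setdb2KO-labelled libraries and 1 read in each Setdb2WT-labelled library. Scaled for library size, the summed reads stood in a ratio of 25.4 (exact 95% interval 8.40 to 126, counting error only). Like Dll1, Mfng passed the filter only through the Setdb2KO-labelled libraries. The O-fucosyltransferase Pofut1, which adds the sugar that fringe lengthens, fell 2.15-fold. Of the O-glucosyltransferases, Poglut1 fell 2.09-fold and Poglut2 1.39-fold, and Poglut3, named after its values were seen, did not pass (log2 fold change -0.070; edgeR adjusted p = 0.27).

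Rbpj (Entrez 19664, chromosome 5), the DNA-binding partner of every Notch receptor, rose. It had 351, 324 and 344 CPM in the Setdb2KO-labelled libraries and 179, 180.4 and 176 CPM in the Setdb2WT-labelled ones. All 3 Setdb2KO-labelled libraries lay above all Setdb2WT-labelled ones, a 1.90-fold rise (log2 fold change 0.93, SE 0.035; edgeR adjusted p = 6.7e-12). GENCODE lists the processed copies Rbpj-ps1 and Rbpj-ps3 in the mouse genome, and reads they share with Rbpj leave this value uncertain. The ratio of Rbpj to Notch2 per kilobase was 4.76, 4.16 and 4.60 under Setdb2KO and 1.47, 1.48 and 1.44 under Setdb2WT (3.08-fold; exact permutation p = 0.1, 0.117 adjusted).

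Hes1 (Entrez 15205, chromosome 16), a repressor of the basic helix-loop-helix class and the most widely used readout of Notch signals, was the most abundant member per length. It had 181, 184 and 184 CPM in the Setdb2KO-labelled libraries and 141, 145 and 144 CPM in the Setdb2WT-labelled ones. The groups did not overlap, and the difference was small: a 1.28-fold rise (log2 fold change 0.35, SE 0.031; edgeR adjusted p = 9e-08), with 70.4% of all genes tested changing more. Hes1 thus rose where all 3 receptors fell. Relative to Rbpj it went down, with a per-kilobase ratio of 2.44, 2.68 and 2.53 under Setdb2KO and 3.72, 3.80 and 3.88 under Setdb2WT (1.49-fold lower under Setdb2KO; exact permutation p = 0.1, 0.117 adjusted).

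Hey1 (Entrez 15213, chromosome 3), a related repressor, was expressed at a low level. It had 1.29, 1.29 and 1.82 CPM under Setdb2KO and 1.83, 2.04 and 2.33 CPM under Setdb2WT. The highest Setdb2KO-labelled value all but met the lowest Setdb2WT-labelled one, and as raw reads the groups overlapped, with 50, 50 and 70 under Setdb2KO and 64, 72 and 81 under Setdb2WT. The fitted log2 change was -0.49 (SE 0.22; 95% interval -0.96 to -0.027; edgeR adjusted p = 0.048). The call was lost in 9 of 12 alternatives, among them DESeq2's test (adjusted p = 0.11) and 4 of the 6 fits that each left out a library, and its adjusted p ran from 0.017 to 0.16 over all 12. Hes1 exceeded Hey1 per kilobase by 231, 235 and 166 times under Setdb2KO and 127, 117 and 102 times under Setdb2WT (exact permutation p = 0.1, 0.117 adjusted).

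**Figure D3:**
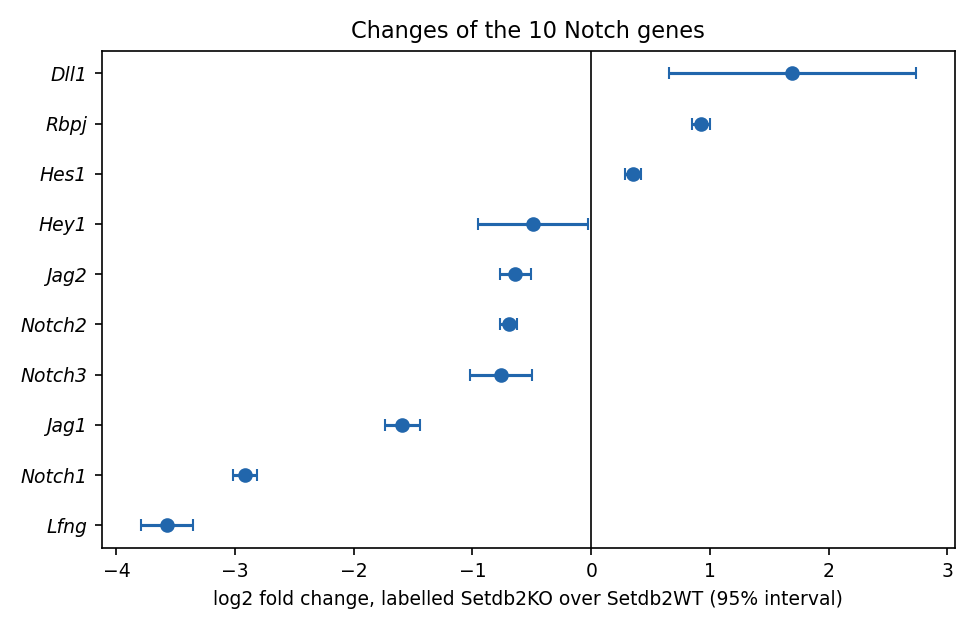
Log2 fold change of each gene, Setdb2KO-labelled over Setdb2WT-labelled libraries, with its 95% interval. Lfng at -3.57 and Notch1 at -2.91 lie farthest to the left, the interval of Dll1 is the widest, and that of Hey1 ends just short of 0.

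The genes also differed in level. Per kilobase of exon, Hes1 led in both groups with 125 ± 1.2 CPM per kilobase under Setdb2KO and 97.6 ± 1.5 under Setdb2WT (SD, n = 3 each). Rbpj followed with 48.9 ± 2.0 CPM per kilobase under Setdb2KO and 25.7 ± 0.32 under Setdb2WT, and Notch2 came next with 10.9 ± 0.30 under Setdb2KO and 17.6 ± 0.016 under Setdb2WT. Below these the order differed between groups. Under Setdb2KO it ran Jag2, Notch1, Jag1, Lfng, Hey1, Notch3 and Dll1, and the ranges of Notch1 and Jag1, and of Hey1 and Notch3, overlapped. Under Setdb2WT it ran Notch1, Lfng, Jag2, Jag1, Notch3, Hey1 and Dll1, and only the neighbours Notch3 and Hey1 overlapped. The order was the same when the longest transcript was used as the length.

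Replicate spread differed between the genes. In the Setdb2KO-labelled libraries the coefficient of variation of CPM was 0.947% for Hes1, 2.80% for Notch2 and 4.16% for Rbpj, and 15.6% for Lfng, 20.9% for Hey1 and 29.4% for Dll1. In the Setdb2WT-labelled libraries it was 1.52% for Hes1, 0.0899% for Notch2 and 1.25% for Rbpj, and 2.61% for Lfng, 12.1% for Hey1 and 60.8% for Dll1. Counting error alone gives Dll1 22.7% at its mean reads under Setdb2KO and 43.3% under Setdb2WT. It gives 1.24% for Notch2 and 1.265% for Rbpj under Setdb2WT, and 1.19% for Hes1 under Setdb2KO. The observed spreads of Notch2 and Rbpj under Setdb2WT and of Hes1 under Setdb2KO were below that, so they are no measure of reproducibility. Those of Dll1 were above its counting error in both groups.

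The wider pathway moved in both directions. The table holds 82 further pathway genes, of which 77 were tested: 38 rose, 31 fell and 8 did not pass. The median log2 change over them was 0.097. That is 89.6% called, against 83.8% of all genes tested. Among the other receptors and ligands Dlk2, a Delta-like homologue, averaged 2.44 ± 0.61 CPM under Setdb2KO and 7.51 ± 0.46 CPM under Setdb2WT (SD, n = 3 each) and fell 3.08-fold (edgeR adjusted p = 3.2e-07). The others were named after their values were seen. Dll3, a Delta-like protein that acts inside the cell, had 73, 69 and 62 reads under Setdb2KO and 3, 1 and 0 under Setdb2WT, and the summed reads, scaled for library size, stood in a ratio of 46.3 (exact 95% interval 17.8 to 171, counting error only). Its fitted log2 change was 5.41, and 6.63 without Setdb2WT replicate 1, which held 3 of the 4 reads. It too passed the filter only through the Setdb2KO-labelled libraries. Dll4, the ligand of sprouting vessels, had 15, 15 and 16 reads under Setdb2KO and 32, 40 and 39 under Setdb2WT and fell 2.65-fold (edgeR adjusted p = 0.00049). Notch4 had 27, 17 and 17 reads under Setdb2KO and 29, 28 and 26 under Setdb2WT and did not pass (log2 fold change -0.58, SE 0.31; edgeR adjusted p = 0.095; 0.046 without Setdb2KO replicate 1).

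Genes for receptor cleavage moved in both directions. Of 10 tested 4 rose and 5 fell, 2 of these at least 2-fold, and 1 did not pass. Their median log2 change was -0.12. Over all genes tested 41.5% were higher and 42.3% lower, and 32.6% were called with a change of at least 2-fold. Furin, which cuts the receptor on its way to the surface, rose 1.47-fold, with 193 ± 7.0 CPM under Setdb2KO and 132 ± 1.6 CPM under Setdb2WT (SD, n = 3 each). The gamma-secretase subunits did not move together: Psenen rose 1.35-fold, whereas Aph1a fell 1.44-fold and Ncstn 1.26-fold. Of 7 glycosylation genes tested, Rfng, Pofut1 and Poglut1 among them, 3 rose, 3 fell and 1 did not pass.

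Ubiquitin ligases and endocytic adaptors, which route ligands and receptors through the cell, moved both ways. Of 16 tested 11 rose and 5 fell, beside 41.5% and 42.3% of all genes tested, and their median log2 change was 0.26. Numb, an adaptor that antagonises Notch, averaged 70.0 ± 1.3 CPM under Setdb2KO and 29.4 ± 1.6 CPM under Setdb2WT (SD, n = 3 each), a 2.38-fold rise (edgeR adjusted p = 1.1e-11). Dtx3, a Deltex family ligase, and Mib2, a ligase for Notch ligands, rose 2.15-fold and 2.04-fold. Epn2, an epsin of clathrin-coated pits, fell 1.91-fold.

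Nuclear partners of Rbpj also moved both ways. Of 7 coactivator genes tested 4 rose and 2 fell, and 1 did not pass. Of all genes tested 41.5% were higher and 42.3% lower, and 7 genes are too few to judge a split against these shares. The median log2 change of the 7 was 0.71, against 0.0045 over all genes tested. Maml1, the Mastermind protein that locks the receptor's intracellular domain onto Rbpj, averaged 107 ± 3.8 CPM under Setdb2KO and 47.7 ± 2.1 CPM under Setdb2WT (SD, n = 3 each), a 2.25-fold rise (edgeR adjusted p = 6.8e-12). The acetyltransferase gene Ep300 rose 2.10-fold and Snw1 1.64-fold, while Kat2a, another acetyltransferase, fell 1.89-fold. Corepressors that Rbpj recruits in the absence of Notch were split, with 7 of 14 higher, 5 lower and 2 that did not pass. Kdm5a, a demethylase of histone H3 lysine 4, rose 2.32-fold and Ncor1 1.67-fold, whereas Ctbp1 fell 1.80-fold.

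**Figure D4:**
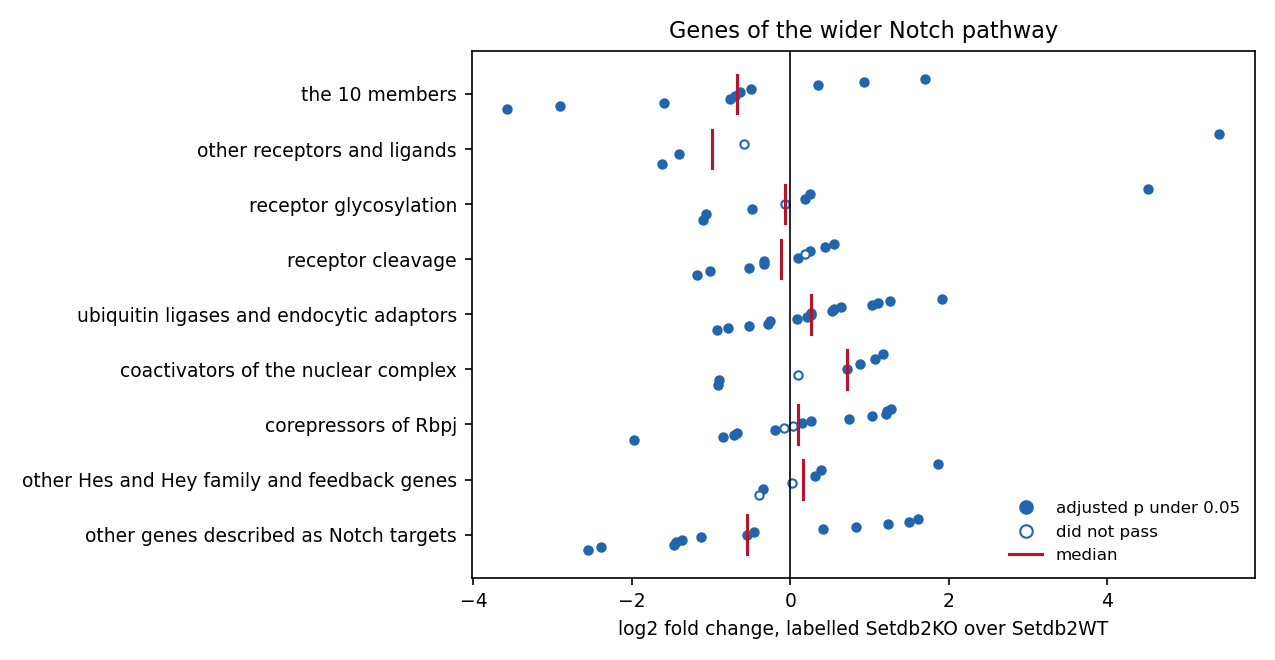
Log2 fold change of every tested gene by its place in the pathway, Setdb2KO-labelled over Setdb2WT-labelled libraries; filled points passed edgeR's test, open points did not, and red bars are medians. The points of most lists lie on both sides of 0, and Dll3 and Mfng lie far to the right on few reads.

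Among the other Hes and Hey genes and feedback genes, 6 were tested, and 3 rose, 1 fell and 2 did not pass. That is 66.7% called, against 83.8% of all genes tested. Hey2 had 48, 52 and 61 reads under Setdb2KO and 6, 14 and 20 under Setdb2WT, a 3.63-fold rise (log2 fold change 1.86, SE 0.35; edgeR adjusted p = 0.0002). Only 2 Setdb2WT-labelled libraries reached 10 reads, so Hey2 passed the filter on low counts through the Setdb2KO-labelled libraries. Hes6 fell 1.27-fold, with 14.8 ± 0.60 CPM under Setdb2KO and 18.7 ± 0.82 CPM under Setdb2WT (SD, n = 3 each). Nrarp, a feedback inhibitor and Notch target, averaged 3.97 ± 0.58 CPM under Setdb2KO and 3.91 ± 0.55 CPM under Setdb2WT and did not pass (log2 fold change 0.021, 95% interval -0.31 to 0.36; edgeR adjusted p = 0.9). Hes7 did not pass either (log2 fold change -0.39, SE 0.34), and Bhlhe40 and Bhlhe41, relatives with a role in the circadian clock, rose 1.31-fold and 1.24-fold. Heyl, Hes2 and Hes3 had at most 4 reads over the libraries of a group and were not tested.

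Of 13 tested genes described elsewhere as Notch targets 5 rose and 8 fell, and 9 of the 13 changed at least 2-fold. Of all genes tested 83.8% were called and 32.6% changed that much. Their median log2 change was -0.54. Ccnd1, the cyclin of early cell cycle entry, averaged 96.2 ± 3.6 CPM under Setdb2KO and 564 ± 12 CPM under Setdb2WT (SD, n = 3 each) and fell 5.86-fold (edgeR adjusted p = 4.7e-16). Id1, which blocks DNA binding by helix-loop-helix partners, fell 5.24-fold. Myc, a growth-promoting transcription factor, and Cdkn1a, a brake on the cell cycle, rose 2.35-fold and 2.82-fold. These genes answer to many other signals, and no common direction was seen.

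Markers of other kidney cell types differed between the groups as well. The counts below stand beside 41.5% of all genes tested higher and 42.3% lower. The summed level of 8 mesangial markers was 32.0 to 34.4 CPM under Setdb2KO and 133 to 138 CPM under Setdb2WT, and all 6 tested fell. Notch3, Pdgfrb and Acta2 are features of mural cells, and Pdgfrb, Acta2 and Gata3 stand in both the mesangial and the target list. For 7 tubular markers the sums were 433 to 455 CPM under Setdb2KO and 1090 to 1105 CPM under Setdb2WT, and of 4 tested 1 rose and 3 fell. For 7 parietal epithelium markers they were 1069 to 1152 CPM under Setdb2KO and 3049 to 3091 CPM under Setdb2WT, and of 6 tested 1 rose and 5 fell. The 5 fibroblast markers summed to 604 to 612 CPM under Setdb2KO and 2266 to 2346 CPM under Setdb2WT, and both tested fell. Nearly all of that sum was Vim, with 606 CPM under Setdb2KO and 2308 CPM under Setdb2WT, while Col1a2 had 29 reads in either group and Dcn and Lum at most 8. For 10 endothelial markers they were 17.8 to 19.6 CPM under Setdb2KO and 20.3 to 22.5 CPM under Setdb2WT, of 5 tested 2 rose and 3 fell, and Cdh5, Tie1 and Emcn had at most 2 reads in a group. For 4 immune markers they were 9.72 to 12.1 CPM under Setdb2KO and 13.7 to 15.2 CPM under Setdb2WT, of 2 tested 1 rose and 1 fell, and the untested ones went opposite ways: Ptprc had 0 reads under Setdb2KO and 14 under Setdb2WT, and Itgam had 12, 9 and 13 reads under Setdb2KO and 0 in each Setdb2WT-labelled library. The part of these marker differences in the Notch values was not tested.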

How the data were processed

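RNA-seq of 6 libraries, 3 per label, was analysed. The authors deposited raw read counts per gene, and the submitters' processing notes name fastp, HISAT, HTSeq and the build GRCm39; RNA came from TRIzol extracts and a VAHTS kit, per the labels' protocols. The sources used here give no versions, annotation or strand setting. Columns were matched to samples by genotype and number.

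From the counts, edgeR 4.0.16 (R 4.3.3) fitted a quasi-likelihood model to all 6 libraries with TMM scaling, filterByExpr (minimum count 10) and genotype as the only term. P-values were adjusted by Benjamini-Hochberg over all 13509 genes tested, at 0.05. CPM values are TMM-scaled; SE is the size of the log2 fold change divided by the root of F. Exon lengths came from GENCODE M21 (GRCm38) through Entrez IDs. At these depths genes with a few reads stay imprecise. Every replicate pair differed by more than counting noise (chi-square per degree of freedom 2.55 to 15.7).

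The members, lists, ratios and tests were chosen with earlier results of these data known. Named genes were the 10 members, Setdb2 and Smad3, up to 4 called genes per pathway list, ranked by adjusted p among those averaging 1 CPM or more, every gene of the Hes and Hey list with at least 10 reads, and markers by a like rule; some of these are not reported here. Smad3 averaged 61.9 ± 2.9 CPM under Setdb2KO and 162 ± 3.1 CPM under Setdb2WT (SD, n = 3 each). The fit was tested on simulated data in which few genes changed, so that test cannot check it under changes as wide as those here. Alternatives were DESeq2's size factors, total-count scaling, the DESeq2 1.42.0 Wald test, no filter on low counts, a stricter filter (3 or more libraries at 1 CPM or above), a block for replicate number, and leaving out each library.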

Additional observations from a re-analysis of the deposited data

How the results depend on the processing

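For 9 of the 10 members the direction and the call held under every alternative that tested them (12 each, and 11 for Dll1, which the stricter filter removed). Their log2 fold changes ran from -3.71 to -3.42 for Lfng, from -2.94 to -2.76 for Notch1, from -0.72 to -0.54 for Notch2, from -0.85 to -0.61 for Notch3, from -1.62 to -1.44 for Jag1, from -0.69 to -0.49 for Jag2, from 0.90 to 1.08 for Rbpj, from 0.32 to 0.51 for Hes1 and from 1.40 to 2.28 for Dll1. Hey1 kept its sign and lost its call with DESeq2's size factors (-0.47), total-count scaling (-0.34), the DESeq2 Wald test (-0.48), the stricter filter (-0.47) and the replicate block (-0.50), and ran from -0.68 to -0.41 with a library left out; the cause was not tested. Setdb2 passed under total-count scaling (0.88, adjusted p = 0.043). Total-count scaling moved all genes up by 0.15 in the median and the higher share of calls to 57.5%, against 49.5%. Nrarp, which passed nowhere, ran from -0.10 to 0.12 with a library left out and was negative without Setdb2KO replicate 2 (-0.097) and without Setdb2WT replicate 1 (-0.10). The replicate numbers did not pair the libraries (correlations of same-numbered deviations -0.067 to 0.018), and the block gave 11190 calls against 11318. With a library left out, 11067 to 11496 genes, 9 to 10 members and 65 to 69 other pathway genes were called. Depth limits Dll1, Dll3, Mfng and Hey1.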
